A study of Mus musculus with 26 samples.

Results

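Cytosolic ribosomal protein genes encode the proteins of the ribosome that works outside mitochondria. Members were the protein-coding genes whose symbol starts with Rpl or Rps and a digit, together with Rpsa, Rplp0, Rplp1 and Rplp2. Symbols ending in -ps and a number, and the S6 kinases of the Rps6k type, were left out. The rule gave 86 of the 55642 genes in the count table. By their names 43 members belong to the large subunit, 31 to the small subunit and 3 to the stalk, and these 77 are called core members here. A further 7 are paralogs of core genes (Rpl3l, Rpl10l, Rpl22l1, Rpl36al, Rpl39l, Rps27l and Rps27rt), and 2 carry a matching symbol without being established subunits (Rps19bp1 and Rpl7l1). Another 293 genes had the same symbol pattern and were left out, 284 by gene type or a -ps symbol and 9 as S6 kinases.

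Each ribosome carries 1 copy of most of these proteins, bound to ribosomal RNA, and the stalk proteins Rplp0, Rplp1 and Rplp2 draw in the translation elongation factors. Many of their mRNAs start with a C followed by a run of pyrimidines, the terminal oligopyrimidine tract, through which the mTOR pathway controls how strongly they are translated. Liver makes most plasma proteins and is rich in ribosomes. The estimated counts report mRNA only, so translation and ribosome number were not measured.

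Liver RNA was sequenced from 4 groups of mice. Wildtype mice received control chow (n = 5) or, for 2 weeks, CDAHFD (n = 6), a choline-deficient high-fat diet with defined amino acids that produces fatty, inflamed liver. Mtarc1 heterozygous knockout (n = 7) and homozygous knockout (n = 8) mice received CDAHFD. No knockout livers on chow were analysed here, so an effect of genotype alone and a changed response to the diet cannot be told apart. Mtarc1 encodes a molybdenum enzyme of the outer mitochondrial membrane. The labels give neither the age of the mice nor the part of Mtarc1 that was removed. They do not state that each numbered sample is a separate animal, and p-values therefore measure the spread between samples, which may be technical.

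Libraries held 19.73 to 29.91 M estimated counts. Levels are given as CPM, counts per M of library counts, on library sizes scaled by the trimmed mean of M-values. Mtarc1 read 305 ± 40.2 CPM (SD, n = 5) for wildtype mice on chow and 235 ± 40.7 (n = 6) for those on CDAHFD. It read 161 ± 33.7 (n = 7) with 1 copy lost and 48.7 ± 10.4 (n = 8) with both lost. The hepatocyte marker Alb lay between 41436 and 91097 CPM in the 26 libraries. In bulk liver fewer cells of a type and less RNA per cell cannot be told apart. Library names fall into a 9000 and an 11000 number series of 9 and 17 libraries, which the labels do not call batches.

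Start-site sequences show the tract that many of these genes share. RefSeq promoter entries of build GRCm38.p6 matched 66 of the 86 members, and 14 of them (21.2%) had an annotated start at a C followed by at least 4 pyrimidines. Among all its 27025 genes 3.01% had such a start. A gene with several annotated starts was counted if any of them had the tract. Rpl35a is such a gene, and only its start with the tract is printed below. The rule reads annotated first bases only, so it can miss tracts. Rpl27a, for example, was not counted, because its annotated start is a T inside a pyrimidine run. The lines below give the 15 bases before and the 15 bases from the annotated start, 5′ to 3′ on the gene's strand, with the tract in capitals. Rpl28, Rpl35a and Rps6 are shown as clear examples, Rpl38 and Rpl35 because they had low counts in knockout livers, and Rps27 and Rps27rt because they are near-identical copies. Rpl28 lies at chr7:4792950-4792979 (plus strand), Rpl35a at chr16:33056467-33056496 (plus), Rps6 at chr4:86857353-86857382 (minus), Rpl38 at chr11:114668565-114668594 (plus) and Rpl35 at chr2:39005117-39005146 (minus). Rps27 lies at chr3:90213634-90213663 (minus) and Rps27rt at chr9:114982725-114982754 (minus).
Rpl28: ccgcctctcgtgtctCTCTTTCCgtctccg
Rpl35a: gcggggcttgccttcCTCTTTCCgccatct
Rps6: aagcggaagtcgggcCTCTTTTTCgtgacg
Rpl38: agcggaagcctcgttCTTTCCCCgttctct
Rpl35: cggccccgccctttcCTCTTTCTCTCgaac
Rps27: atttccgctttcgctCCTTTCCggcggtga
Rps27rt: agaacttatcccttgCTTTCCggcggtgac

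Rpl28 and Rpl35a carry the same tract of 8 bases. Rps27rt begins at what is the second base of Rps27, and the pair is identical for 38 bases from there, while the bases before the start differ. Annotated starts without the tract occurred among members with large differences too, and Rpl41 and Rps28 are shown for that reason, from chr10:128549154-128549183 and chr17:33824548-33824577, both on the minus strand.
Rpl41: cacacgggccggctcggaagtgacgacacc
Rps28: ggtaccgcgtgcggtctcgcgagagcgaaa

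In the 300 bases around the start, from 250 before to 50 after it, CTTTCC on the gene's strand was found in 40.9% of the matched members and 16.01% of all genes in the table. CTTCCG, the core of the ETS factor motif, was found on either strand in 66.7% of members and 18.8% of all genes. TATAAA on either strand was found in 10.6% of members and 15.7% of all genes. These matches describe letters in the windows.

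Core members were expressed in every library, at a median of 176 CPM over the 77 genes. Per kb of the longest annotated coding sequence, the highest mean levels were those of Rpl13a (1169 CPM per kb), Rpl41 (1161), Rplp1 (932) and Rps2 (822). Rpl41 encodes the smallest ribosomal protein, and its place in that order rests on its short coding length. The 138 bases used for it are the longest among its annotated transcripts. On longest annotated transcript length Rps2 (680 CPM per kb), Rpl13a (680) and Rplp1 (639) led, and Rpl41 read 231.

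The levels of core members were steady from library to library. The highest library exceeded the lowest by a median factor of 1.60 over the 77 genes. The standard deviation of log2 CPM within groups had a median of 0.158, beside 0.251 for all 17104 genes tested and 0.206 for the 2546 other genes with a mean of 50 to 500 CPM. Rpsa, whose product is also known as the laminin receptor, had the lowest value (0.0804), followed by Rpl22 (0.0840) and Rps24 (0.0847). Rps27 had the highest (0.850), and its counts are shared with Rps27rt as described further on.

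Members took 1.46 ± 0.0590% of all estimated counts on chow (SD, n = 5) and 1.67 ± 0.141% in wildtype mice on CDAHFD (n = 6). Their share was 1.49 ± 0.0987% in heterozygous (n = 7) and 1.49 ± 0.131% in homozygous knockouts (n = 8). The 6 wildtype CDAHFD libraries read 1.82, 1.79, 1.53, 1.59, 1.78 and 1.51%. Samples 1, 2 and 5 of that group were thus the highest libraries of the study, and its other 3 lay within the range of the knockout groups. Heterozygous libraries spanned 1.37 to 1.68% and homozygous libraries 1.34 to 1.72%.

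That share depends on what else fills the libraries. The 20 most abundant genes took 29.5 ± 2.38% of counts in wildtype chow and 24.9 ± 1.28% in wildtype CDAHFD. With those genes left out of the total, the members' share was 2.07% on chow and 2.22% in wildtype CDAHFD livers, beside 1.95% for heterozygous and 1.97% for homozygous knockouts. The 13 mRNAs of the mitochondrial genome took 11.9% of counts on chow and 9.39% in wildtype CDAHFD livers, beside 7.59% for heterozygous and 8.59% for homozygous knockouts. Without them the members' share was 1.66, 1.85, 1.61 and 1.63% in that order.

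**Figure D1:**
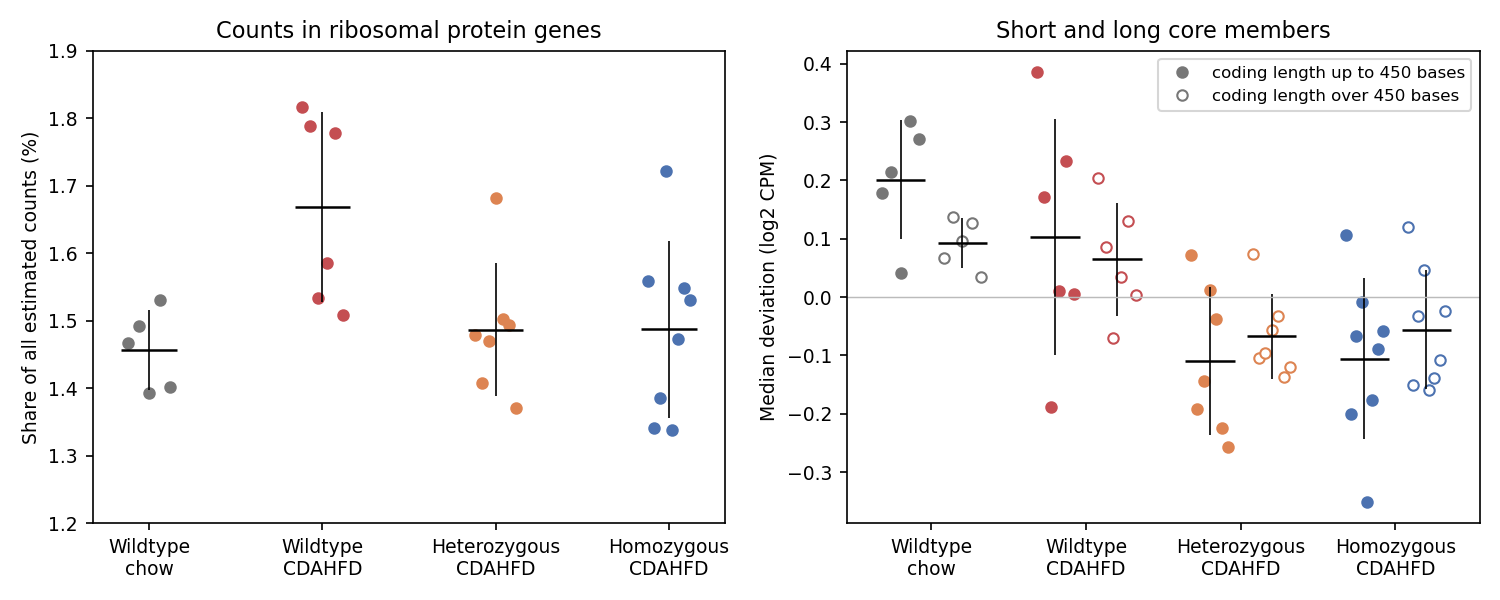
Left, share of all estimated counts in the 86 members (percent, axis starting at 1.2) for each of 26 libraries. Right, median deviation of core members from their 26-library mean (log2 CPM), with filled points for the 35 genes with a coding length up to 450 bases and open points for the 42 longer ones. Bars give the group mean and vertical lines 1 SD. Wildtype CDAHFD samples 1, 2 and 5 stand at the top of the left plot with 1.78 to 1.82%, and short members spread more than long ones in the wildtype CDAHFD group.

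The diet comparison asks what CDAHFD changed in wildtype liver. Of the 86 members 84 passed the filter on low counts. The 2 that did not were the paralogs Rpl10l, with at most 1 count in a library, and Rpl3l, with at most 9 counts. Rpl41 and Rps9 rose and Rpl36 fell on the diet, and the other 81 tested members did not pass. These 3 calls compare with 27.1% of all genes tested that were called in either direction at an adjusted p under 0.05 by edgeR's quasi-likelihood test with Benjamini-Hochberg adjustment. The median log2 fold change of members was -0.06, and that of all genes -0.01. Values were above 0 for 28 members and below 0 for 56.

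Rpl41 read 152, 152, 167, 132 and 124 CPM in wildtype chow and from 160 to 195 CPM (median 180) in wildtype CDAHFD. Only chow sample 3 reached the range of the diet group. The log2 fold change was 0.29 ± 0.09 (SE), with an edgeR adjusted p of 0.0151. Rps9, a small subunit protein that binds early in assembly, read 186, 177, 198, 170 and 147 CPM on chow and 197 to 216 CPM (median 202) on CDAHFD. Its groups met at a single chow library, again sample 3. The log2 fold change was 0.22 ± 0.08, with an edgeR adjusted p of 0.0334.

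Rpl36, a large subunit protein, read 144, 158, 117, 166 and 164 CPM on chow and 76.2 to 142 CPM (median 112) on CDAHFD. Chow sample 3 was again the library inside the range of the diet group. The log2 fold change was -0.40 ± 0.15, with an edgeR adjusted p of 0.0435. Of the 31-base stretches in annotated Rpl36 transcripts 94.1% also occur in other genes' transcripts. With near-identical pseudogene copies added to their members, an alternative described further on, Rpl36 read -0.39 and was still called lower. The part of read assignment in this value was not tested beyond that fit. None of the 3 calls held in every alternative. Without chow sample 5 neither Rpl41 (adjusted p = 0.0613) nor any other member was called by edgeR, and without wildtype CDAHFD sample 1 there were 1 higher and 5 lower calls. Rps9 was also lost without chow sample 2 or 4 or wildtype CDAHFD sample 1 or 4, and Rpl36 without chow sample 1, 2 or 4 or wildtype CDAHFD sample 2, 3, 4 or 6.

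The direction of the whole set depends on scaling. Scaled to raw library totals, the diet comparison gave 25 members higher and 0 lower, beside 31.4% of all genes called higher. The median member log2 fold change was then 0.17, but the median of all genes moved to 0.22 as well. Relative to all genes, members were therefore not higher on that scale either. The scaling factors averaged 0.890 in wildtype chow and 1.05 in wildtype CDAHFD.

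The stalk genes lay on the higher side in the diet comparison. Rplp0, the base of the stalk, read 281, 315, 373, 253 and 216 CPM on chow and 306 to 417 CPM (median 342) on CDAHFD, a log2 fold change of 0.29 ± 0.12 (edgeR adjusted p = 0.0727). Rplp1 differed by 0.16 ± 0.08 and Rplp2 by 0.12 ± 0.07. None of the 3 passed, although Rplp0 did without chow sample 3 (log2 fold change 0.41, adjusted p = 0.0130). The 43 large subunit genes had a median of -0.07 and the 31 small subunit genes a median of -0.02. Rpsa had a diet value of -0.14 ± 0.07, and reached 548 CPM in chow sample 2 against 417 to 476 CPM on CDAHFD.

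**Figure D2:**
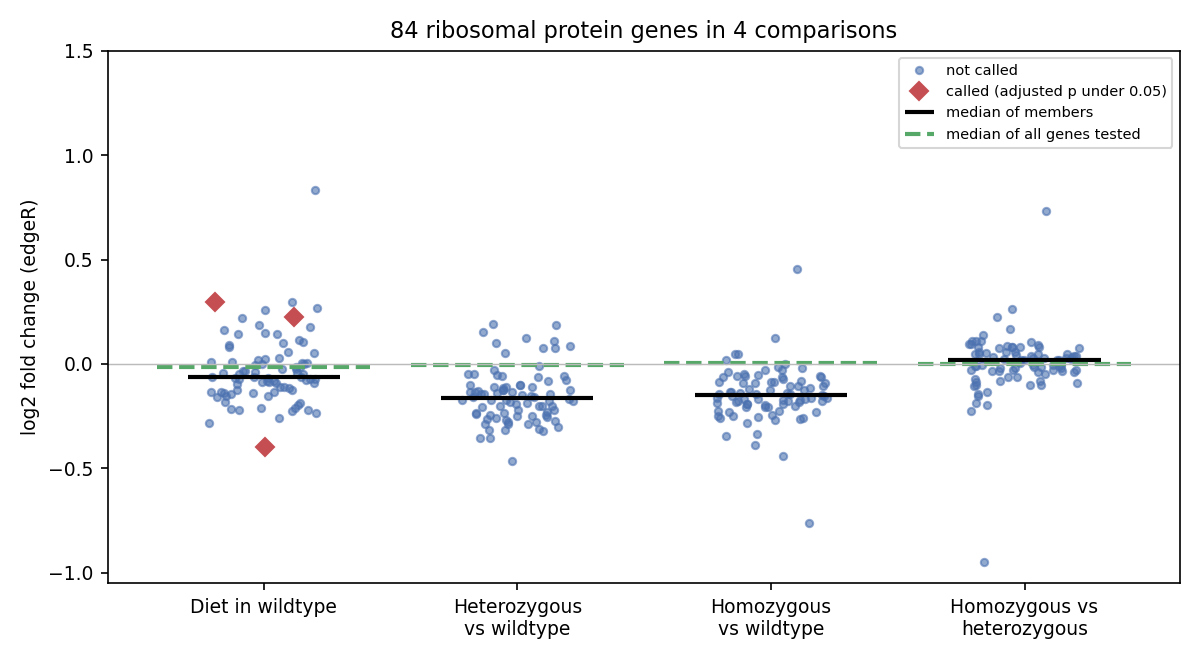
Each point is the log2 fold change (edgeR) of 1 of 84 tested members in 1 of 4 comparisons, with red diamonds for members called at an adjusted p under 0.05. Black lines give the member median and dashed green lines the median of all 17104 genes tested. Only the diet comparison holds called members (2 higher, 1 lower), and in both comparisons of knockout with wildtype most points lie below 0.

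**Figure D3:**
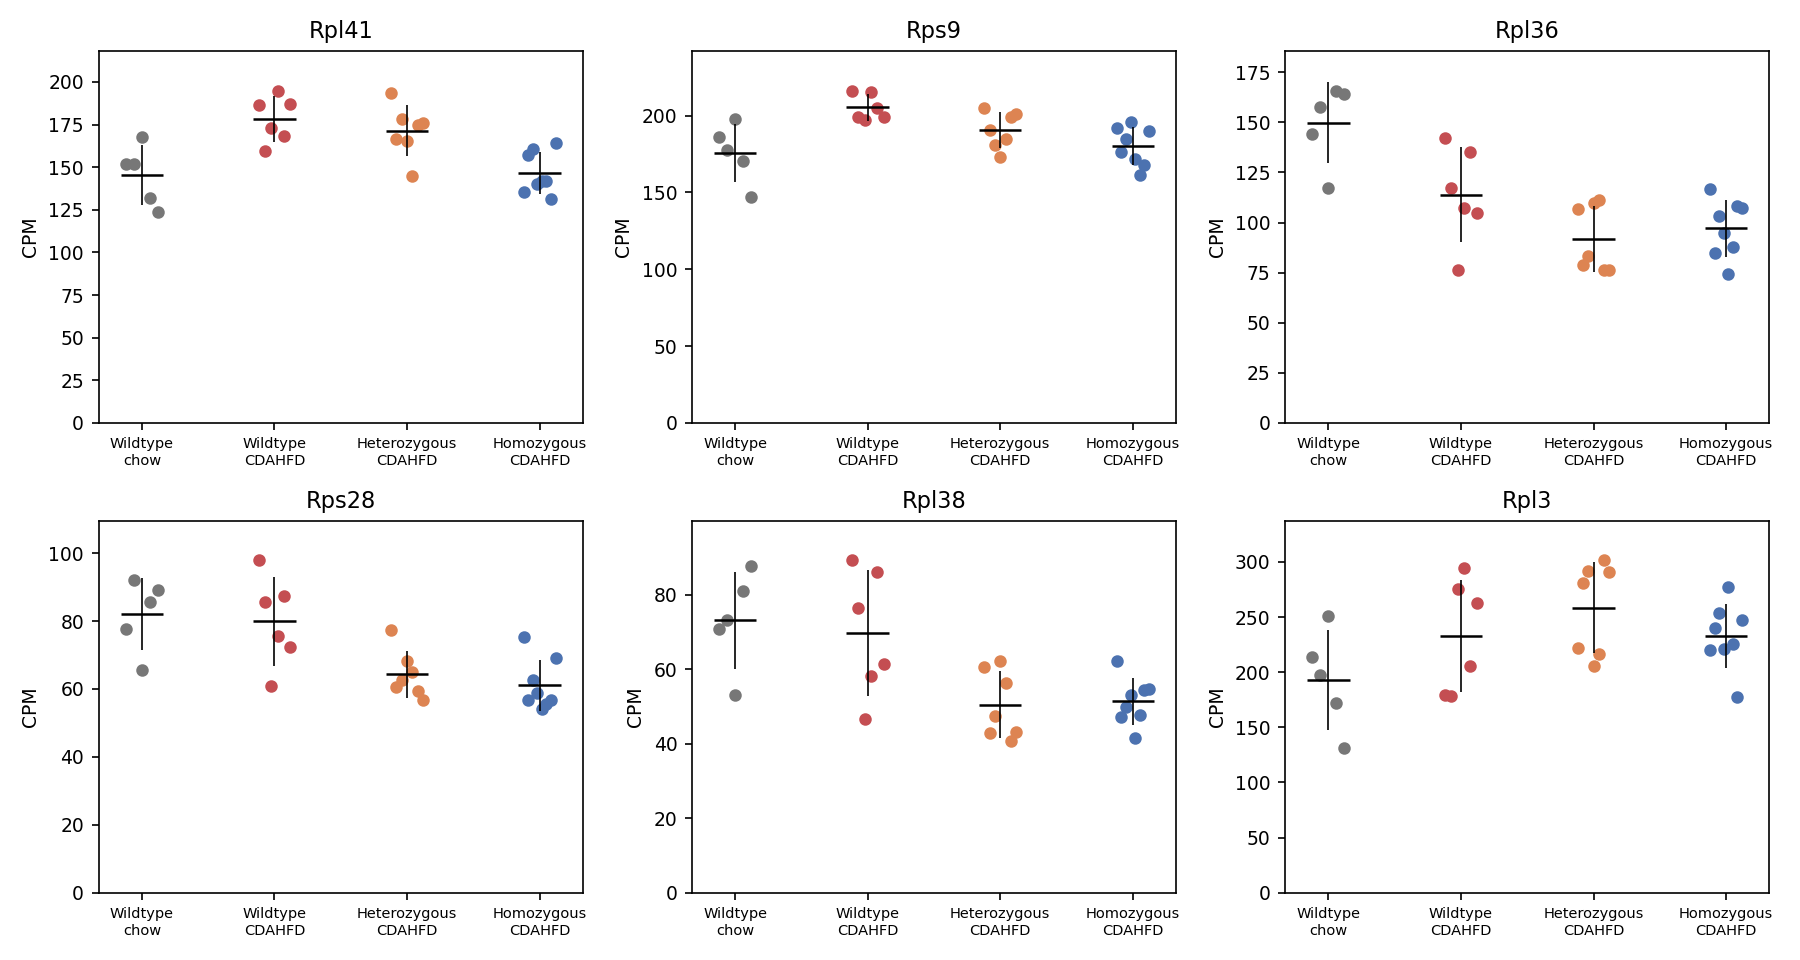
CPM of Rpl41, Rps9, Rpl36, Rps28, Rpl38 and Rpl3 in each of 26 libraries by group, with the mean (bar) and 1 SD (vertical line). Axes start at 0. Rpl41 was highest in wildtype and heterozygous CDAHFD livers, and Rps28 and Rpl38 read lower in most knockout libraries than in the top 3 wildtype CDAHFD libraries.

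The comparisons of knockout with wildtype on CDAHFD ask what a missing Mtarc1 copy, or the absence of both, did to liver mRNA. These comparisons and the diet comparison share the wildtype CDAHFD libraries. No member was called in homozygous livers, where 0.00585% of all genes were called by edgeR. That share is 1 gene of 17104, Mtarc1 itself. At an unadjusted p under 0.05, 27 of 84 members were lower and 0 higher, beside 6.07% of all genes that were lower at that threshold. That count was 13 without wildtype CDAHFD sample 1, 45 without sample 3 and 14 in the 11000 series alone. The median member log2 fold change was -0.15 and 78 members lay below 0. The median of all genes was 0.01. DESeq2 called 3 members lower, Rpl22, Rpl41 and Rps28, where it called 0.322% of all genes lower, and limma's voom called 0.

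Rps28, a small subunit protein near the mRNA exit site, had the lowest p. It read 97.8, 85.7, 60.7, 75.6, 87.5 and 72.3 CPM in the 6 wildtype CDAHFD libraries and 54.2 to 75.4 CPM (median 57.8) in homozygous livers. The ranges overlapped. The log2 fold change was -0.39 ± 0.10, with an edgeR adjusted p of 0.181, and DESeq2 gave an adjusted p of 0.0489. Rpl41 read 131 to 164 CPM (median 142) in homozygous livers, and 6 of those 8 libraries lay below the lowest wildtype CDAHFD library. Its log2 fold change was -0.28 ± 0.08, with an edgeR adjusted p of 0.202 and a DESeq2 adjusted p of 0.0489.

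Rps19, which is needed to mature the small subunit and is mutated in Diamond-Blackfan anaemia, read 107 to 127 CPM (median 122) in wildtype CDAHFD and 88.1 to 117 CPM (median 96.6) in homozygous livers. Its log2 fold change was -0.26 ± 0.08, with an edgeR adjusted p of 0.224. Rpl22 read 87.3 to 106 CPM (median 101) in wildtype CDAHFD and 82.0 to 95.6 CPM (median 84.6) in homozygous livers. That difference was -0.20 ± 0.06 on the log2 scale, with an adjusted p of 0.243 in edgeR and 0.0473 in DESeq2. Among the stalk genes Rplp2 had the lowest value, -0.18 ± 0.06.

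In heterozygous livers 0 members were called, and 0% of all genes were. At an unadjusted p under 0.05, 35 of 84 members were lower and 0 higher, beside 4.31% of all genes lower. That count was 8 without wildtype CDAHFD sample 1, 12 without sample 5, and 17, 19, 16 and 17 without heterozygous sample 2, 3, 6 or 7. It was 8 in the 11000 series alone and 21 with only these groups in the fit. The median member log2 fold change was -0.16, and 74 members lay below 0. DESeq2 and voom also called 0 members. Rpl38, a large subunit protein whose loss causes skeletal patterning defects in mice, had the lowest p. It read 89.2, 76.4, 46.7, 58.2, 86.1 and 61.4 CPM in wildtype CDAHFD and 40.9 to 62.3 CPM (median 47.6) in heterozygous livers. Wildtype CDAHFD samples 1, 2 and 5 lay above every heterozygous library and the other 3 inside their range. The log2 fold change was -0.46 ± 0.14, with an edgeR adjusted p of 0.569.

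Rps28 differed by -0.31 ± 0.10 and Rps19 by -0.22 ± 0.08 in heterozygous livers, with the same edgeR adjusted p of 0.569. Rpl41 did not share the pattern there. It read 145 to 193 CPM (median 175) in heterozygous livers, close to wildtype CDAHFD, with a log2 fold change of -0.06 ± 0.08.

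Homozygous and heterozygous livers were compared directly in the same fit. No member was called, and 0.00585% of all genes were, which again is Mtarc1 alone. At an unadjusted p under 0.05 there were 2 members, Rpl41 and Rps27, both lower in homozygous livers, beside 7.13% of all genes in either direction. DESeq2 and voom called 0 members. The median member difference was 0.02 on the log2 scale. Rpl41 was lower in homozygous livers by a log2 value of -0.22 ± 0.08 (edgeR adjusted p = 0.483), Rps27 differed by -0.95 ± 0.42 (adjusted p = 0.691) and Rps19bp1 by 0.23 ± 0.11 (adjusted p = 0.705).

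The lower values in knockout livers varied with the length of the longest annotated coding sequence. The 35 core members with a coding length up to 450 bases had a median log2 fold change of -0.21 in homozygous livers, and the 42 longer ones -0.10. In heterozygous livers the medians were -0.20 and -0.13, and in the diet comparison -0.07 and -0.03. Over the 77 core members the log2 fold change and the log2 coding length had a Pearson r of 0.64 (Spearman rho 0.67) in the homozygous and 0.47 (rho 0.47) in the heterozygous comparison. These 2 comparisons share wildtype CDAHFD libraries, and genes of 1 library are not independent replicates. In the diet comparison r was 0.10 (rho 0.23).

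**Figure D4:**
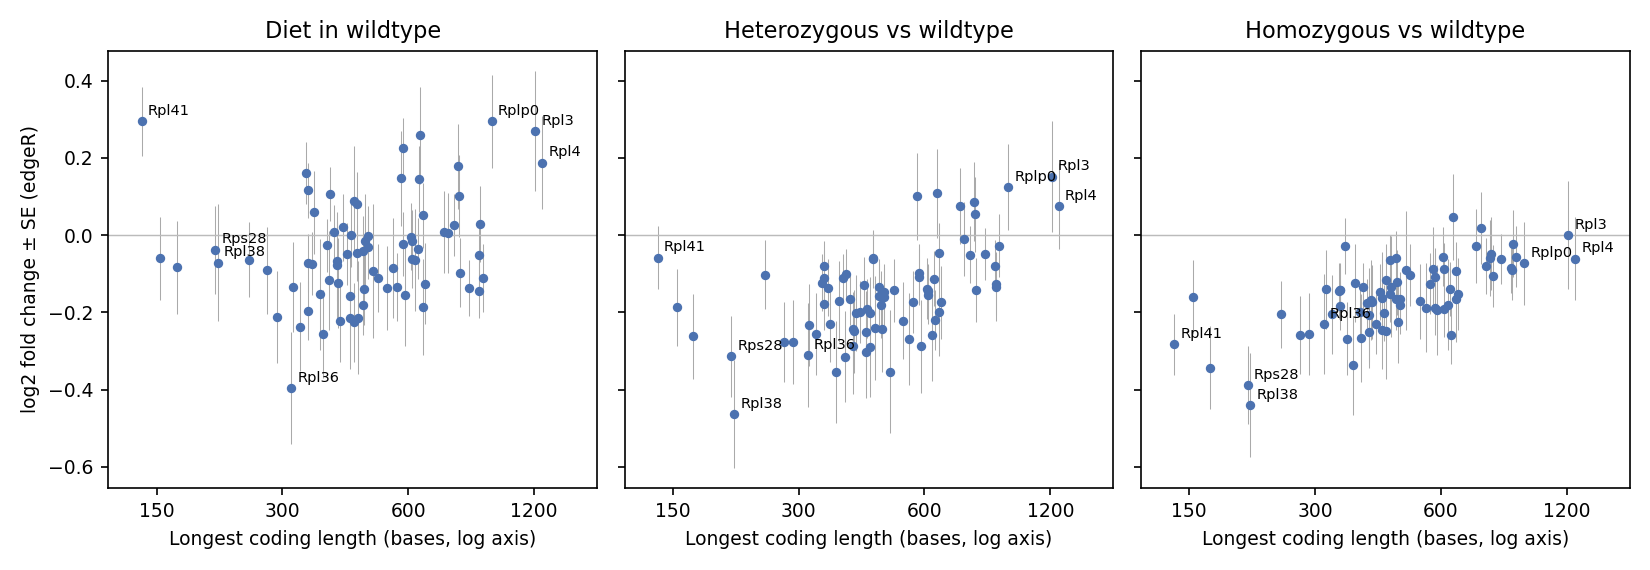
log2 fold change with its SE (edgeR) against the longest annotated coding length (bases, log axis) for core members in 3 comparisons. Rps27 is left out of the plot because its values and SE exceed the axis. In both comparisons of knockout with wildtype the short gene Rpl38 lies lowest, Rps28 is also low, and the long genes Rpl3 and Rpl4 lie near or above 0.

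Single libraries differed along the same lines within a group. Rpl3, which lies beside the peptidyl transferase centre and has a long coding sequence of 1209 bases, read 180, 179, 275, 294, 206 and 262 CPM in wildtype CDAHFD. Samples 1, 2 and 5 had its lowest levels and, as given above, the highest levels of Rpl38, with a coding length of 210 bases. Rpl3 was chosen for its length after its values were seen. In homozygous livers 2 further short members, chosen after their values were seen, were also low. Rps29 (168 bases) had a log2 fold change of -0.34 ± 0.11 and Rpl35 one of -0.34 ± 0.13.

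Other genes with short transcripts moved in the same direction. They were chosen by transcript length, while members were split by coding length. On the first measure core members had a median of 1094 bases, so most were not short. The 246 tested protein-coding genes outside the members whose longest transcript is under 800 bases had a median log2 fold change of -0.12 in homozygous and -0.18 in heterozygous livers, and -0.09 on the diet. By contrast the 2546 other genes with a mean of 50 to 500 CPM had medians of 0.04 and 0.08 in the knockout comparisons. In wildtype CDAHFD samples 1, 2 and 5, where short core members deviated by 0.39, 0.17 and 0.23, the other short genes deviated by 0.23, 0.05 and 0.19 (log2 CPM). In homozygous sample 5, the lowest of the 26 libraries on both measures, the values were -0.35 and -0.28. The homozygous means were -0.105 and -0.0386, and sample 3 of that group read -0.067 and 0.074. Whether fragment length or RNA quality took part was not tested.

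The differences were seen in both number series. The mean of the libraries' median core deviations was 0.09 for wildtype CDAHFD, -0.06 for heterozygous and -0.03 for homozygous libraries of the 9000 series (n = 3, 3 and 2). In the 11000 series it was 0.07, -0.10 and -0.09 (n = 3, 4 and 6). Ranges overlapped with wildtype CDAHFD for both knockout groups in the 9000 series and for homozygous libraries in the 11000 series. The 4 heterozygous libraries of the 11000 series (-0.18 to 0.00022) lay below its 3 wildtype CDAHFD libraries (0.0054 to 0.17).

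Markers of several other cell types also had lower values in knockout livers, with 0 called by edgeR in every list. Hepatocyte markers went the other way. Of 12, 10 lay above 0 in homozygous and 9 in heterozygous livers, with medians of 0.12 in both. Cholangiocyte and lymphocyte markers were mixed in homozygous livers, with 3 of 5 and 4 of 13 above 0 and medians of 0.09 and -0.04. All 4 neutrophil markers tested lay below 0 there. In homozygous livers all 16 macrophage markers and all 11 stellate and fibroblast markers lay below 0, with 11 and 9 of them at an unadjusted p under 0.05. Their summed levels were 651 to 1024 and 387 to 556 CPM, beside 856 to 1505 and 531 to 1047 CPM in wildtype CDAHFD. In heterozygous livers they were 823 to 1154 and 474 to 656 CPM, and 14 of 16 and 8 of 11 genes lay below 0. All 9 endothelial markers lay below 0 in both knockout groups, with medians of -0.21 (homozygous) and -0.23 (heterozygous). So did all 12 cell division genes, with medians of -0.39 and -0.44. Summed endothelial levels were 272 to 334 CPM in wildtype CDAHFD, 160 to 367 in heterozygous and 190.0 to 337 in homozygous livers, and cell division genes summed to 65.2 to 157, 38.6 to 158 and 40.6 to 113 CPM. On chow the macrophage and stellate sums were 441 to 687 and 292 to 371 CPM. Of these markers 15 of 16 and 6 of 11 rose on the diet, beside 27.1% of all genes called in either direction. Among the defining markers of other cells only Ly6g was at 0 in most libraries (21 of 26). The part of these cells in the members' values was not tested.

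Counts of several members depend on how reads were divided among near-identical genes. Rps27, a small subunit protein, took 2.66 to 37.7% of the counts that it and Rps27rt held together, and 91.6% of the 31-base stretches of Rps27rt occur in Rps27. Rps27 read 4.88, 6.63, 6.47, 7.64 and 11.99 CPM in wildtype chow. In wildtype CDAHFD it read 20.6, 21.4, 1.80, 10.1, 7.49 and 18.9 CPM, a spread that covered the chow range.

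The sum of Rps27 and Rps27rt stayed between 67.9 and 107 CPM in all 26 libraries. On chow it averaged 95.4 ± 7.72 CPM (n = 5) and in wildtype CDAHFD livers 88.9 ± 12.7 (n = 6). Heterozygous livers gave 80.7 ± 8.72 (n = 7) and homozygous livers 81.6 ± 12.3 (n = 8). The diet values of 0.83 ± 0.51 for Rps27 and -0.22 ± 0.14 for Rps27rt, and the homozygous value of -0.76 ± 0.44 for Rps27, come from this divided pair, and none passed.

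Elsewhere most counts went to a copy. Rpl10, which joins the large subunit late in assembly, held a median of 19.1% of the counts shared with Rpl10-ps3. Rpl12 held a median of 7.89% of those shared with Gm10275, and Rpl5, which carries 5S ribosomal RNA, 10.4% of those shared with Gm15500. Rpl27a and Gm7536 divided their counts almost evenly (median 51.0% for Rpl27a). An alternative chosen after seeing the data added near-identical copies that are pseudogenes or carry -ps symbols to their member. The diet comparison then again called 2 members higher and 1 lower, and the other comparisons 0. Rps27rt is protein-coding and was not added to Rps27 in that fit.

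**Figure D5:**
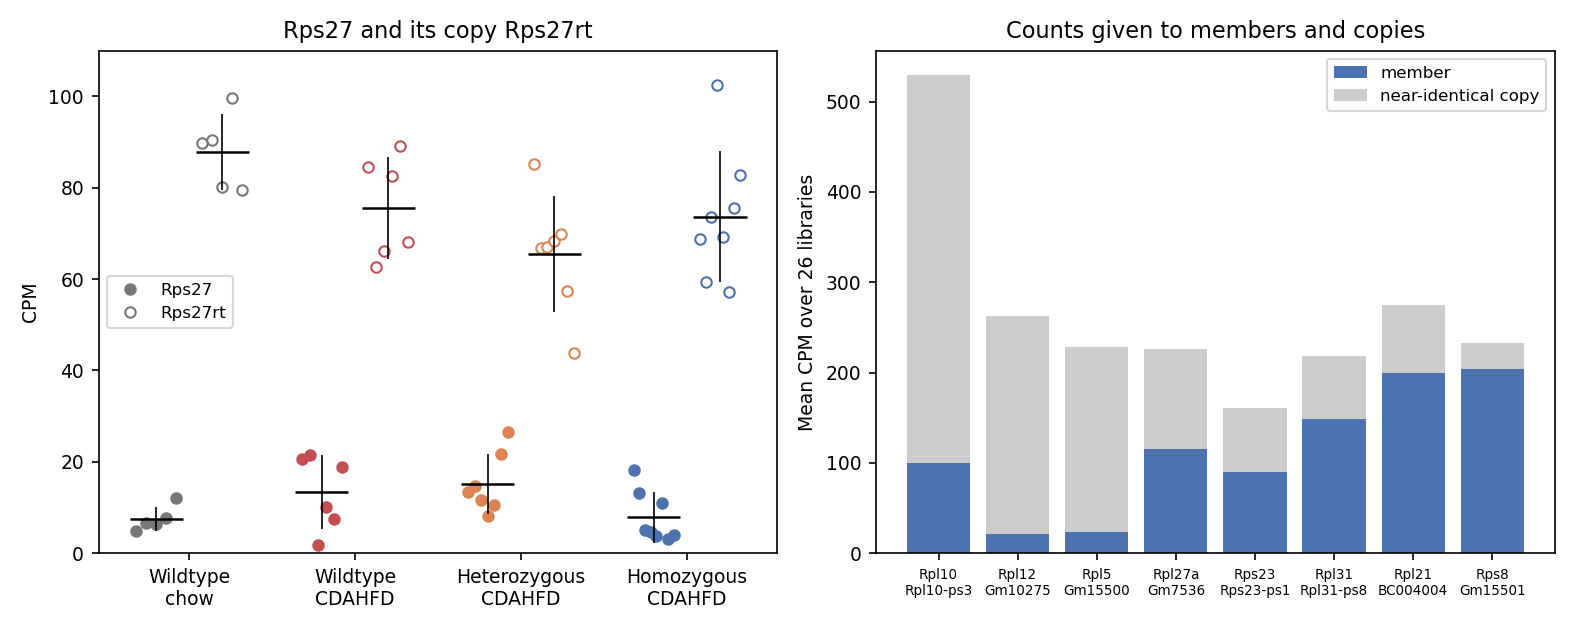
Left, CPM of Rps27 (filled) and Rps27rt (open) in each of 26 libraries with the group mean and 1 SD. Right, mean CPM over 26 libraries given to 8 members (blue) and to the copy named under each (grey), stacked from 0. Rps27 stays below Rps27rt in every library, and Rpl10, Rpl12 and Rpl5 receive fewer counts than their copies.

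Among the paralogs Rpl22l1, which can stand in for Rpl22, read 30.4 to 46.6 CPM on chow and 37.4 to 56.2 CPM in wildtype CDAHFD. Its diet value was 0.22 ± 0.13 and that of Rpl22 was -0.03 ± 0.07, and neither passed. Rps27l, a known p53 target, had a diet value of -0.09 ± 0.14 and a heterozygous value of -0.32 ± 0.12 (edgeR adjusted p = 0.569). Rpl36al read 159 to 251 CPM over the 26 libraries. Rpl39l, best known from testis, stayed between 0.0792 and 0.993 CPM. Rpl7l1 read 46.4 to 83.5 CPM and Rps19bp1, a regulator of the deacetylase Sirt1, 14.7 to 28.2 CPM.

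Genes that work with the ribosome were read from lists in the same fit, in which 27.1% of all genes were called on the diet. Among ribosomal proteins with other symbols Fau, which is made as a fusion to a ubiquitin-like protein, fell by 0.26 on the log2 scale (SE 0.10, edgeR adjusted p = 0.0461), while Rack1 did not pass. The call for Fau was lost without chow sample 1, 2, 4 or 5 or wildtype CDAHFD sample 2, 3, 4 or 6. Of 67 ribosome biogenesis genes 4 rose and 11 fell, with a median of -0.09. Nat10, which acetylates 18S ribosomal RNA, fell by 0.61 (SE 0.10, adjusted p = 3.58e-05), and Las1l, an endonuclease of pre-ribosomal RNA processing, fell by 0.35 (SE 0.07, adjusted p = 0.000512). Eif6, which keeps the large subunit from joining too early, rose by 0.88 ± 0.16 (edgeR adjusted p = 0.000238).

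Translation factors gave few calls on the diet. Of 35 initiation factors 1 rose and 3 fell, and of 14 elongation and release factors 0 passed the edgeR test, with 2 at an unadjusted p under 0.05. Of 27 genes of mTOR and Myc control of translation 7 rose and 6 fell. Eif4ebp1, which encodes an inhibitor of translation initiation, rose by 0.85 ± 0.12 (edgeR adjusted p = 1.08e-05). Larp1, which binds the terminal oligopyrimidine tract, fell by 0.52 (SE 0.10, adjusted p = 0.000371), and Rps6kb1, the S6 kinase, fell by 0.33 (SE 0.07, adjusted p = 0.000877). On raw library totals the calls for Rps6kb1 (-0.10, adjusted p = 0.431) and Las1l (-0.12, adjusted p = 0.225) were lost. The 13 core members with that tract at the annotated start had a median diet value of -0.07, and the 44 with another annotated start -0.05. In homozygous livers these medians were -0.17 and -0.13, and in heterozygous livers -0.15 and -0.14. The split follows annotated first bases, so members with a missed tract can fall in the second group.

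Mitochondrial ribosomal proteins, which serve the separate ribosome of mitochondria, gave 4 rises and 11 falls among 78 genes on the diet, with a median of -0.07. Mrpl18 fell by 0.60 (SE 0.12, adjusted p = 0.00038) and Mrpl47 by 0.49 (SE 0.09, adjusted p = 0.000288), and Mrpl23 rose by 0.73 ± 0.15 (edgeR adjusted p = 0.000623). In the knockout comparisons 0 genes of any of these lists were called by edgeR. At an unadjusted p under 0.05 the biogenesis list held 0 genes in homozygous and 1 in heterozygous livers, and the mitochondrial ribosomal proteins 2 and 7. Of all 17104 genes tested, 1705 and 1444 were at that threshold in either direction. The 2 mitochondrial ribosomal protein genes in homozygous livers were higher, unlike the members. The mitochondrial ribosomal proteins had medians of 0.04 in homozygous and -0.04 in heterozygous livers, and the biogenesis genes 0.02 and 0.00, beside -0.15 and -0.16 for the members.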

How the data were processed

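The deposited table held estimated counts, made by the authors with tools that include cutadapt 3.5 and Salmon 1.4.0 on mouse build GRCm39, per the submitters' processing notes. Strand use and the summing of transcripts to genes are not given in the sources used here. Counts were rounded to whole numbers. Names, gene types, coding lengths and shared 31-base stretches came from GENCODE release M21 (GRCm38), which matched 92.5% of gene IDs, and start sites from RefSeq. One edgeR 4.0.16 fit (R 4.3.3) of 26 libraries and 4 groups used trimmed-mean scaling, filterByExpr by group, robust quasi-likelihood F tests and Benjamini-Hochberg adjustment over 17104 genes. SE is the absolute log2 fold change divided by the square root of F. Alternatives were other scalings, no filter, the number series, a replicate block, added copies, fits of subsets, DESeq2 1.42.0, voom in limma 3.58.1 and each library left out. The procedure was tested on simulated counts.

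Library totals of 19.73 to 29.91 M limit precision little for core members, whose spread is that between samples. No library was a duplicate: chi-square per degree of freedom within groups was at least 16.9. Deviations of same-numbered samples correlated above 0.1 in 2 of 5 diet, 2 of 6 homozygous, 4 of 6 heterozygous and 4 of 7 homozygous-heterozygous pairs, not in every pair, so numbers were not used as pairs.

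Members and lists were chosen with earlier results of these data known. Named members are those called, or, where fewer than 2 were called, the 3 with the lowest p in a comparison, the 5 highest per kb, paralogs with their counterparts, Rpsa and the stalk genes, members with an outlying library, and up to 3 called genes per related list with the lowest p. Some genes under this rule are not reported here. Lists for other liver cells were also read on the diet, where 27.1% of all genes tested were called in either direction. Endothelial, neutrophil and lymphocyte markers gave 0 of 9, 3 of 4 and 1 of 13 tested genes higher. Cholangiocyte and cell division markers gave 1 of 5 and 12 of 12 higher, and each of these lists gave 0 lower. The cholangiocyte call was Spp1, which is also in the macrophage list. Of 12 hepatocyte markers 1 was higher and 6 were lower. The 13 mitochondrial mRNAs gave 0 higher and 9 lower.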

Additional observations from a re-analysis of the deposited data

Results flagged for a closer look

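Single libraries stood apart from the rest of their group in 7 of 336 combinations of member and group (2.08%), by the gap to the nearest library as a share of the group's range. Chance gives about 1 in 20. Rpl21 read 212 CPM in heterozygous sample 1 (others 181 to 194) and 246 CPM in chow sample 4 (others 202 to 214). Rps26 read 107 CPM in heterozygous sample 1 (others 85.8 to 94.4). Rpl37 read 84.3 CPM in homozygous sample 1 (others 56.9 to 69.8). Rpl22l1 read 56.2 CPM in wildtype CDAHFD sample 5 (others 37.4 to 44.0). In chow sample 3 Rpl17 read 250.2 CPM (others 306 to 328). The members' share of counts was 1.68% in heterozygous sample 4, above the 1.37 to 1.502% of the other 6.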

How the results depend on the processing

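The diet calls depended on settings. Against 2 higher and 1 lower, the counts were 25 and 0 on raw totals, 3 and 0 with upper quartile scaling, 1 and 0 without the filter, 1 and 1 with the number series as a covariate, 0 and 0 in the 11000 series alone or with only the 2 groups compared, and 2 and 5 with DESeq2. Leaving out each library gave 0 to 3 higher and 0 to 5 lower, and the median ran from -0.10 to -0.01 (0.17 on raw totals). With the replicate block they were 2 and 0, and the block changed no other count of calls. In homozygous livers DESeq2 called 3 lower. With mitochondrial mRNAs left out the members' share was 1.66, 1.85, 1.61 and 1.63% in chow, wildtype CDAHFD, heterozygous and homozygous livers, and without the 20 most abundant genes 2.07, 2.22, 1.95 and 1.97%. Signs turned for uncalled diet values on raw totals, to 0.091 for Rpsa, 0.012 for Rps27rt, 0.14 for Rps27l and 0.21 for Rpl22, which edgeR then called (adjusted p = 0.0281). Rpl22 read 0.0023 without the filter and -0.045 to 0.0066 with each library left out, above 0 only without wildtype CDAHFD sample 3. Members lower at an unadjusted p under 0.05 numbered 13 to 45 in homozygous and 8 to 49 in heterozygous livers with a library left out. Median member values then stayed at -0.19 to -0.10 in homozygous and -0.21 to -0.12 in heterozygous livers. The cause of these shifts was not tested, except that subsets hold fewer samples.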
